A study of Mus musculus with 30 samples.

Results

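Within the tumors grown from MCA-969, the 4 whose titles carry the letter W (W-1D, W-2D, W-2G and W-R) were compared with the 4 whose titles carry the letter a (a-1D, a-2D, a-1G and a-R). These 8 tumors were chosen by their titles alone, out of 30 tumors in the series. The labels do not state what the letters stand for, and no condition was assigned to them here. MCA-969 is 1 cell line, derived from 1 primary fibrosarcoma that had been induced with the carcinogen 3-methylcholanthrene (MCA), so the 8 tumors replicate the transplant and not the line. All 8 carry the same labels for mouse strain (Ncr1Cre R26DTA), for genetic background (C57BL/6) and for growth in C57BL/6 mice. In the Ncr1Cre R26DTA strain, Cre expressed from the gene of the NKp46 receptor switches on diphtheria toxin A, so that NKp46+ cells are lost. The strain label does not itself say whether it names the source of the line or the host. In the paper, primary tumors arose in Ncr1Cre mice with or without the R26DTA allele. The lines derived from them were transplanted into C57BL/6 mice, so the strain label is read here as the source of the line. No age or treatment is given per tumor. Tumors had been dissociated and depleted of CD45+ cells with microbeads before the RNA was extracted. The label for sensitivity to NK cells reads No in 6 of the 8 tumors and Yes in W-1D and W-2D. In the paper, sensitivity came from survival curves of transplanted mice with and without an antibody that depletes NK1.1+ cells, which include NK cells. The paper does not state which of these mice gave the sequenced tumors. It assigned sensitivity to a cell line, and not to single tumors. A label that differs within 1 line departs from that scheme, and no reason is given.

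The letter was only partly separable from how the libraries were made. W-1D and W-2D came from library run 2, as numbered in the labels, whereas W-2G, W-R and all 4 a tumors came from run 1. The W tumors carry index numbers 21 to 24 and the a tumors 1 to 4, so index set and letter cannot be told apart. Each tumor gave 32514125 to 39971426 counts over the genes of the table. Values are given as CPM, counts scaled by library sizes that edgeR's TMM method had normalized, and an SD is taken within each letter (n = 4). W-2D stood apart from the rest: its mean correlation with the other 7 tumors was 0.961, against 0.975 to 0.984 for those 7, and 21432 genes had a count in it, against 22348 to 23218. The 100 most abundant genes took 20.7% ± 1.11 of the counts in W and 19.1% ± 0.264 in a (SD, n = 4 each; two-sided exact permutation test, p = 0.0286, the smallest that 4 against 4 allows, and 0.114 adjusted over the 4 library measures). The 15 fibroblast and sarcoma markers summed to between 21000 and 43010 CPM and each was detected. Ptprc, which encodes CD45, was between 0.431 and 2.67 CPM, so transcripts of CD45+ cells in these libraries are what remained after the depletion.

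A tumor grown from a line holds the line's own cells, host stroma and vessels, and host immune cells. NK cells and cytotoxic T cells kill by releasing perforin and granzymes, and macrophages take up dead cells and present antigen on MHC class II. Cells short of oxygen stabilize hypoxia-inducible factors, which raise glycolysis, glucose uptake and the angiogenic factor VEGF-A.

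No gene passed the test between the letters. Of 15218 genes tested, edgeR's quasi-likelihood test called 0 at a Benjamini-Hochberg adjusted p under 0.05, which is 0% in each direction, and the lowest adjusted p was 0.229, for Gzmc. At an unadjusted p under 0.05, 623 genes (4.09%) were higher in W and 602 (3.96%) lower. DESeq2 called 47 genes higher and 48 lower (0.251% and 0.257% of 18700), limma-voom called 0 and limma-voom with sample weights called Gzmc and Gata4. In 394 genes (2.59%) all 4 W tumors lay above all 4 a tumors, and in 488 (3.21%) they all lay below. The median log2 fold change over all tested genes, W minus a, was 0.03, and 54.6% of them were above 0. Nothing in the labels says that the 8 tumors came from separate experiments, so the p-values measure the spread between these tumors. The values that follow describe genes and lists against that background, since none was called.

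Transcripts of several granzymes were counted mostly in the W tumors. Granzyme C, encoded by Gzmc (ENSMUSG00000079186; GRCm38, chromosome 14, 56231441 to 56234656, reverse strand), is a protease of the cytotoxic granules of activated NK and T cells. It had 122 counts in W-1D, 22 in W-2D, 65 in W-2G and 27 in W-R, and 1, 1, 1 and 0 in a-1D, a-2D, a-1G and a-R. The groups did not overlap and the a tumors were close to 0. Gzmc had the lowest p of this same comparison, and it passed the filter on counts through the W tumors alone. Its separation follows from that choice and is no further support. Summed over the groups, Gzmc was 88.9-fold higher in W per library (exact 95% interval 30.1 to 434, counting error only). The fitted log2 fold change of 6.18 (standard error 0.76) depends on the prior count. With DESeq2 the adjusted p was 1.03e-06.

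The other granzymes and perforin were chosen here after their values were seen, and they were too low to pass the filter on counts. Gzmf had 123, 7, 23 and 12 counts in W-1D, W-2D, W-2G and W-R, and 1, 1, 1 and 0 in the a tumors in the order above. Gzma, the granzyme A gene, had 57 counts over the W tumors and 1 over the a tumors, a ratio of 64.4 (11.1 to 2590). The interval of this ratio and of those below covers counting error only, and not the spread between tumors. For both genes every W tumor lay above every a tumor. Gzmb, which encodes granzyme B, an activator of caspases, had 79 counts in W and 10 in a, a ratio of 8.93 (4.61 to 19.3), again without overlap. Perforin (Prf1) had 36, 1, 12 and 9 counts in the W tumors and 2, 1, 1 and 0 in the a tumors, and W-2D lay within the range of a. Ncr1, the gene of NKp46 itself, had 12 counts over the W tumors (7, 1, 1 and 3) and 0 in each a tumor, at least 4.52-fold more per library when a is set at the limit of 3 counts over the group. Not every granzyme followed this order. Gzme had 40, 0, 10 and 6 counts in W-1D, W-2D, W-2G and W-R and 4 to 6 in each a tumor, and Gzmg had 53, 0, 4 and 2 counts in W and 0 in a, so both overlapped through W-2D. Gzmc to Gzmg are close relatives in sequence, and the counting could split their reads among them. In bulk libraries such as these, fewer cells of a type and less RNA per cell cannot be told apart.

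Of the 18 genes in the list for NK cells and ILC1, 5 passed the filter on counts and 0 were called. Of the 5, 1, Gzmc, was higher in every W tumor than in any a tumor, as were 2.59% of all tested genes. Gzmc passed the filter through its counts in W alone, so its place in this count is no further support. The median log2 fold change of the 5 was 0.25, against 0.03 over all genes. Of the 13 members below the filter, 9 were higher in every W tumor than in any a tumor (Ncr1, Klrk1, Klre1, Gzma, Gzmb, Nkg7, Tbx21, Txk and Xcl1) and 4 overlapped (Prf1, Klrb1c, Klrd1 and Klrc1), most of them on few counts. The share over all genes below the filter was not computed, so this count has no background to be read against. Klrk1, the gene of the activating receptor NKG2D, had 7, 8, 6 and 9 counts in the W tumors and 2, 0, 0 and 3 in the a tumors, a ratio of 6.78 (2.61 to 22.4). Nkg7, a granule membrane protein, had 13 counts in W and 1 in a, a ratio of 14.7 (2.21 to 624). Il2rb, a chain of the receptors for IL-2 and IL-15, was 1.95, 0.464, 1.08 and 0.934 CPM in W-1D, W-2D, W-2G and W-R, and 0.390, 0.303, 0.383 and 0.680 CPM in a-1D, a-2D, a-1G and a-R. Only a-R reached into the range of the W tumors. Eomes, a transcription factor of NK cells and T cells, was 0.612 to 1.32 CPM in W and 0.471 to 2.12 CPM in a. Of 15 T cell markers 5 were tested. Cd4, the co-receptor of helper T cells, was 0.199 to 1.34 CPM in W and 0.126 to 0.294 CPM in a, with W-2D inside the range of a, and Trac, the constant part of the T cell receptor alpha chain, was 0.110 to 0.397 CPM in W and 0.324 to 0.473 CPM in a.

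**Figure D1:**
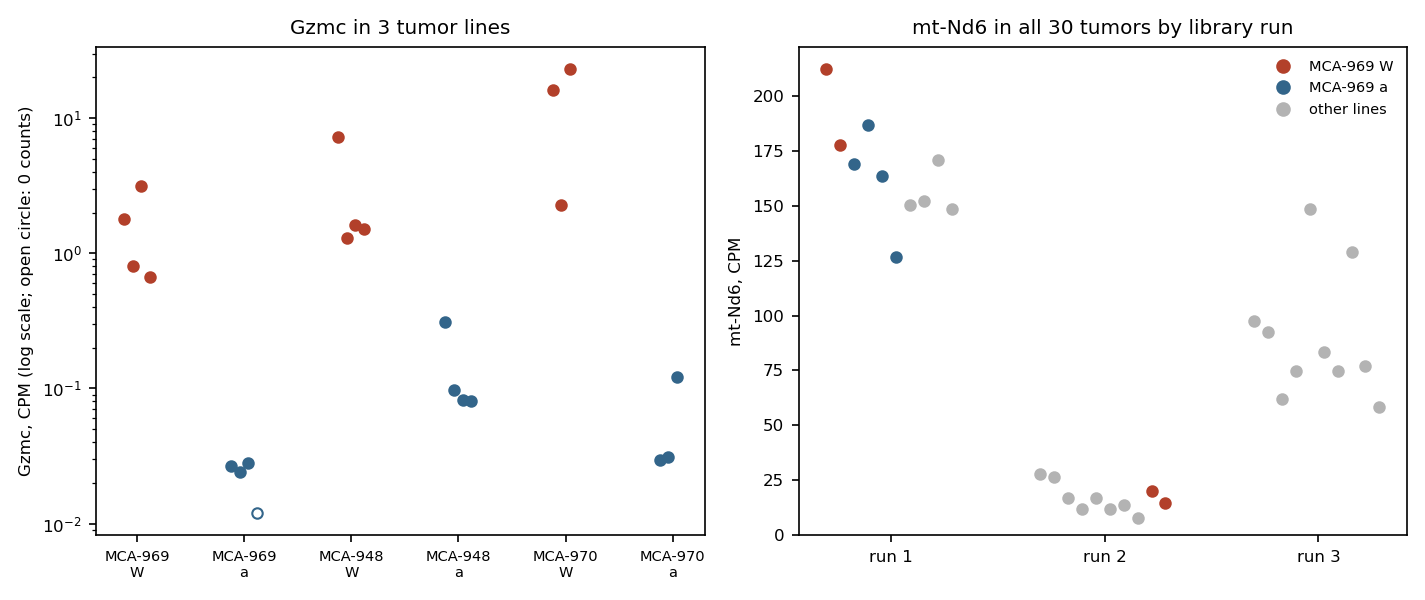
Left, Gzmc in CPM on a log scale in each W (red) and a (blue) tumor of MCA-969, MCA-948 and MCA-970, with an open circle for a tumor without a count; right, mt-Nd6 in CPM in all 30 tumors by library run, with MCA-969 coloured and other lines in grey. All values are scaled over the 30 tumors; in each of the 3 lines every W tumor lies above every a tumor for Gzmc, and all 10 tumors of run 2 lie below 28.0 CPM for mt-Nd6.

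The same gene in other lines gave values from tumors that the comparison in MCA-969 did not use, as the plot of Gzmc by line shows. In a fit on all 30 tumors the log2 fold change of Gzmc, W minus a, was 6.15 (standard error 1.01, edgeR adjusted p = 0.0237) in MCA-969. It was 4.34 (standard error 0.76, adjusted p = 0.00594) in MCA-948, with 1.31 to 7.27 CPM in the W tumors and 0.0806 to 0.310 CPM in the a tumors. In MCA-970 it was 7.67 (standard error 1.00, adjusted p = 0.00099), with 2.28 to 22.98 CPM against 0.0297 to 0.121 CPM. In each line every W tumor lay above every a tumor, which held for 2.91% of the 18404 tested genes in MCA-948 and 5.65% in MCA-970. Genes called higher in W made up 0.114% and lower 0.614% in MCA-948, and 0.147% and 0.0217% in MCA-970. The difference of MCA-969 from MCA-948 was 1.81 (standard error 1.46, adjusted p = 0.531) and from MCA-970 -1.52 (standard error 2.33, adjusted p = 0.849), and these errors leave room for differences of several units. The lone W tumor of MCA-943 held 22.7 CPM, and its 3 a tumors held 0.375 to 1.16 CPM.

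Macrophage transcripts showed the opposite order and were unevenly spread among the a tumors. Of 16 macrophage and monocyte markers 12 were tested, 11 of them had a log2 fold change below 0 (54.6% of all genes were above 0), and 4 (C1qa, C1qb, C1qc and Adgre1) lay lower in every W tumor than in any a tumor, where the share over all genes was 3.21%. The median was -2.04, against 0.03 over all genes. C1qc, a chain of the complement component C1q that macrophages secrete, was 0.795, 0.695, 0.526 and 0.966 CPM in W-1D, W-2D, W-2G and W-R, and 6.87, 1.34, 2.503 and 5.95 CPM in a-1D, a-2D, a-1G and a-R. Its log2 fold change was -2.48 (standard error 0.51, edgeR adjusted p = 0.556). All 4 a tumors lay above the W tumors, and a-1D and a-R were the high ones. C1qc was named for the lowest p of the list in this same comparison, so its separation is no further support. Adgre1, the F4/80 antigen, was 0.164 to 0.351 CPM in W and 3.92, 0.379, 0.707 and 3.20 CPM in a-1D, a-2D, a-1G and a-R. Lyz2, lysozyme, was 2.46 to 4.67 CPM in W and 4.30 to 25.3 CPM in a, and Csf1r, the receptor that macrophages need for survival, was 0.762 to 1.89 CPM in W and 1.49 to 12.9 CPM in a, both with overlap. Cd68 and Cd14 did not share this order: Cd68 was 6.33 to 14.7 CPM in W and 7.36 to 12.7 CPM in a, and Cd14 was 8.63 to 22.6 CPM in W and 7.81 to 12.8 CPM in a.

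The genes of MHC class II had the lowest fold changes of the interferon gamma list. Of the 26 members of that list 24 were tested and 0 were called. Their median log2 fold change was -0.04, with 10 above 0 and 14 below. Cd74, the invariant chain, was 0.630, 0.530, 0.468 and 1.26 CPM in W-1D, W-2D, W-2G and W-R, and 10.99, 1.67, 2.44 and 7.18 CPM in a-1D, a-2D, a-1G and a-R. H2-Aa was 0.193 to 0.292 CPM in W and 0.404 to 4.17 CPM in a, and H2-Ab1 was 0.133 to 0.380 CPM in W and 0.657 to 3.95 CPM in a. These 3 genes were the only tested members of the list that did not overlap between the letters, and H2-Eb1 did overlap. Over all tested genes the share lower in every W tumor was 3.21%. H2-Ab1 and Cd74 were named for the lowest p of the list, so their separation is no further support. Ctss and Cx3cr1, a lysosomal protease and a chemokine receptor of myeloid cells, were chosen after their values were seen and also did not overlap, with log2 fold changes of -2.53 and -3.20 (standard errors 0.58 and 0.74). Ptprc moved with these genes: it was 2.48 and 2.67 CPM in a-1D and a-R and 0.431 to 1.21 CPM in the other 6 tumors. The summed level of the 16 macrophage markers was 96.6 CPM in a-1D and 103 CPM in a-R, 29.6 and 45.9 CPM in a-2D and a-1G, and 28.9 to 45.8 CPM in W. With a-2D and a-1G as the only a tumors, the median of the list was -0.57. The part of residual CD45+ cells in these differences was not tested.

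**Figure D2:**
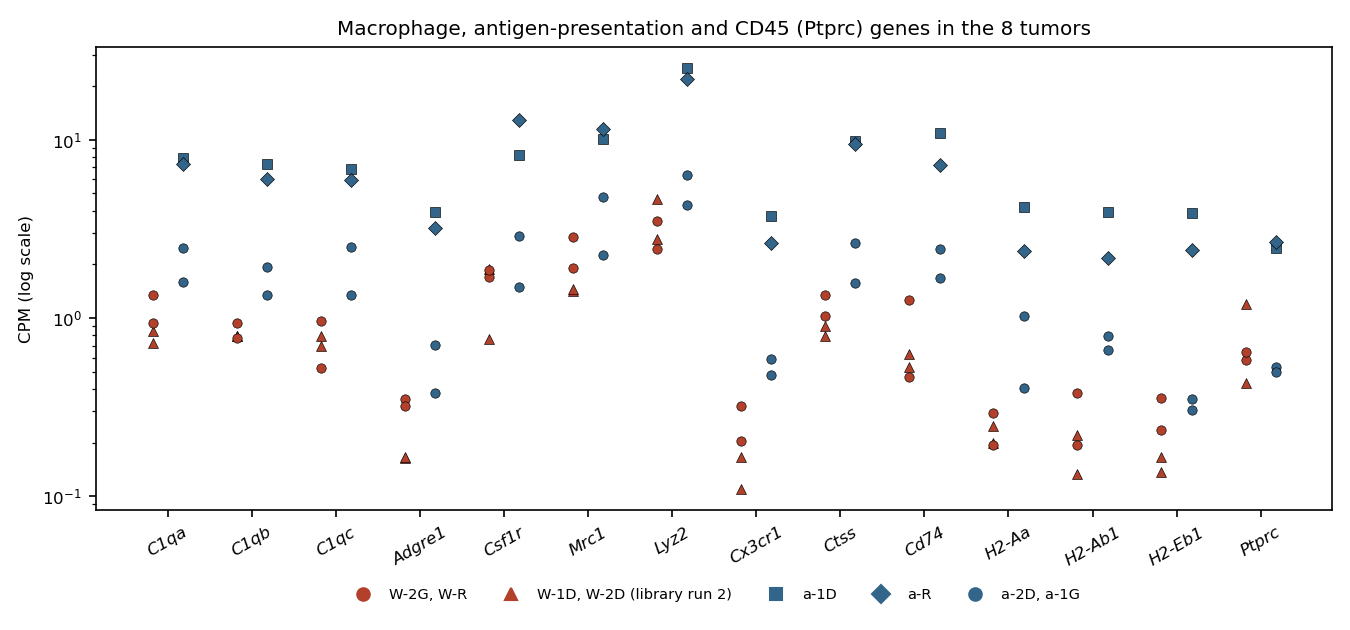
CPM on a log scale of 14 macrophage, antigen-presentation and leukocyte genes in each W tumor (red; triangles for library run 2) and each a tumor (blue; square for a-1D, diamond for a-R). The square and the diamond are the highest values of every gene, and a-2D and a-1G sit between them and the W tumors for C1qa, C1qb, C1qc, Adgre1, Cx3cr1, Ctss, Cd74, H2-Aa and H2-Ab1.

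In other lines the macrophage genes did not follow this order. The median log2 fold change of the same 12 genes, from the fit on all 30 tumors, was -2.09 in MCA-969, -0.05 in MCA-948 and 2.18 in MCA-970. For Cd74, the difference of W minus a was -3.94 from MCA-948 (edgeR adjusted p = 0.0809, standard error 1.07) and -5.04 from MCA-970 (adjusted p = 0.162, standard error 1.14), each taken as MCA-969 minus the other line. None of the 12 macrophage genes passed the test of the difference from either line.

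Hypoxia and glycolysis genes lay higher in the W tumors. All 30 members of the list were tested, 0 were called, 30 had a log2 fold change above 0 (54.6% of all genes did) and 9 did not overlap between the letters, each higher in W, where the share over all genes was 2.59%. The median was 0.39, against 0.03 over all genes, and the fold changes ran from 0.05 to 1.38. The summed level of the list was 9956 to 11660 CPM in W and 7332 to 8660 CPM in a, without overlap. The median was 0.54 between the W tumors of run 1 and the a tumors, with 30 of 30 above 0, and 0.35 between the W tumors of run 2 and the a tumors, with 27 of 30 above 0.

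Higd1a, a mitochondrial protein induced by hypoxia, was 34.8, 44.9, 41.8 and 42.1 CPM in W-1D, W-2D, W-2G and W-R, and 23.4, 26.4, 27.3 and 28.1 CPM in a-1D, a-2D, a-1G and a-R. Its log2 fold change was 0.64 (standard error 0.12, edgeR adjusted p = 0.556, DESeq2 adjusted p = 0.00185). Both groups were tight and did not overlap. Ndrg1, a stress-induced gene used as a hypoxia marker (chromosome 15, 66929318 to 66969640), was 322, 247, 410 and 404 CPM in the W tumors in the same order and 113, 192, 204 and 144 CPM in the a tumors. Vegfa, the main angiogenic growth factor (chromosome 17, 46016993 to 46032369), was 300, 333, 257 and 577 CPM in W and 154, 191, 213 and 188 CPM in a. In both genes the groups did not overlap, and W-R was the highest tumor for Vegfa. Higd1a and Ndrg1 were named for the lowest p of the list in this same comparison, so their separation is no further support.

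Among glycolytic members of the list, log2 fold changes included 0.72 for Pfkfb3 and 0.17 for Gapdh. Pfkp, a phosphofructokinase, was 89.2 to 121 CPM in W and 66.5 to 87.7 CPM in a. Slc16a3, which exports lactate, was 186 to 255 CPM in W and 122 to 172 CPM in a, and Pgk1, phosphoglycerate kinase, was 431 to 684 CPM in W and 336 to 417 CPM in a. None of these 3 overlapped. Bnip3, a mitophagy receptor, was 127 to 233 CPM in W and 71.5 to 126 CPM in a, with neighbours at 126.6 and 126.5 CPM. Adm, encoding adrenomedullin, had the highest fold change of the list, 1.38 (standard error 0.37), with 30.4 to 101 CPM in W and 15.7 to 34.4 CPM in a, and W-2D below a-1G. Car9, carbonic anhydrase 9, was 4.77 to 17.8 CPM in W and 5.72 to 15.2 CPM in a, so this hypoxia marker overlapped throughout. The endothelial markers, 12 of 12 tested, had 0 called and 0 without overlap, and summed to 149 to 346 CPM in W and 131 to 344 CPM in a.

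**Figure D3:**
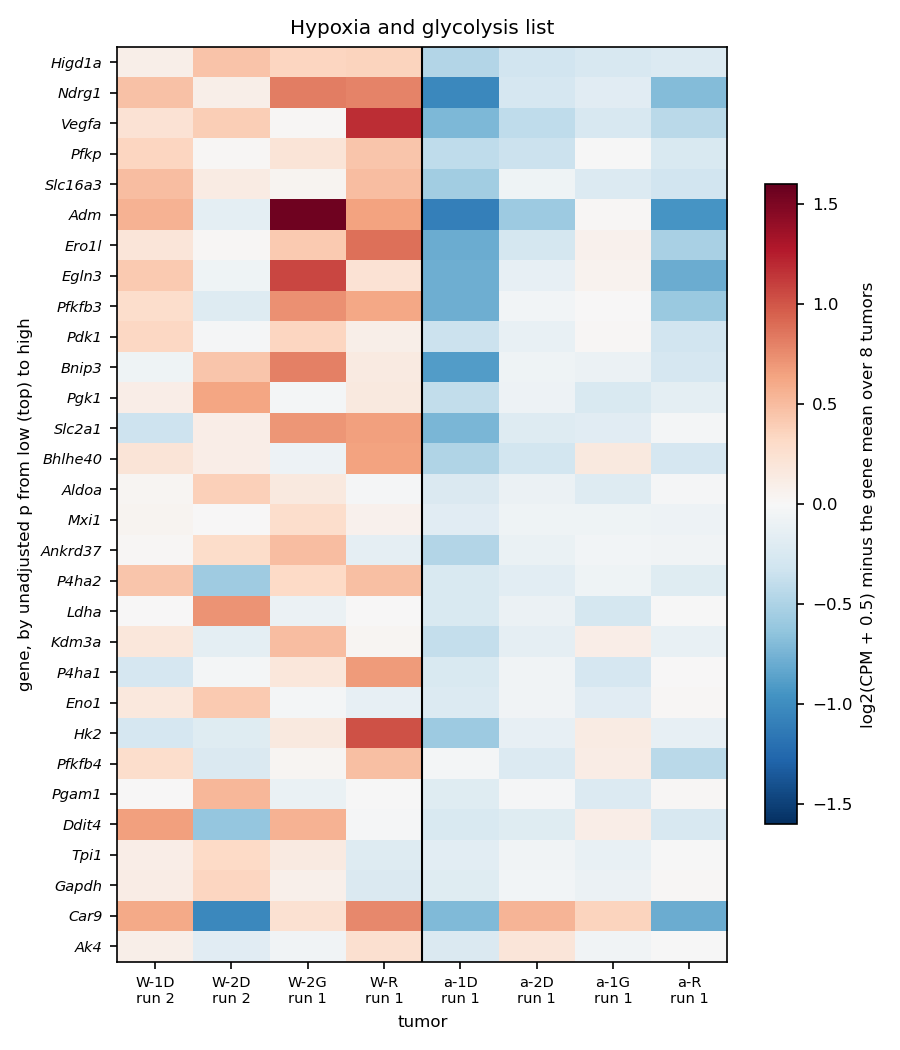
The 30 hypoxia and glycolysis genes in the 8 tumors, W on the left of the line and a on the right, as log2(CPM + 0.5) minus each gene's mean over the tumors (red above, blue below). The upper genes, with the lowest unadjusted p, are mostly red in W and blue in a, and a-1D is the lowest of the a tumors for most genes.

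Promoters of the list were searched for a short sequence. Hypoxia-inducible factors bind the core motif ACGTG, on the other strand CACGT. In RefSeq's promoter table for GRCm38.p6, 28 of the 30 members had an entry, and 19 of them (67.9%) held the motif on either strand in the 250 bases before at least 1 of their start sites, whereas 18.5% of all 27025 genes did. Genes were put on the list for being known targets of these factors, so this share describes the list and not the tumors. The windows of 3 members that did not overlap between the letters are shown because each holds the motif at 1 or 2 places; capitals mark it, and all are written 5′ to 3′ on the gene's strand. The Slc16a3 window lies at chr11:120948817-120949066 on the forward strand, inside the annotated gene and before one of its start sites, the Pgk1 window at chrX:106186850-106187099 on the forward strand directly before the gene, and the Bnip3 window at chr7:138909507-138909756 on the reverse strand.
Slc16a3: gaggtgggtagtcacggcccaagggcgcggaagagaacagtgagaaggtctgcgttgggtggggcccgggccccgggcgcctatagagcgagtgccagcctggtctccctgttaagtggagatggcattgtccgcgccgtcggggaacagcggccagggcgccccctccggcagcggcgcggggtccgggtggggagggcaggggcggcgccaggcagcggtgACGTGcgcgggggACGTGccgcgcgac
Pgk1: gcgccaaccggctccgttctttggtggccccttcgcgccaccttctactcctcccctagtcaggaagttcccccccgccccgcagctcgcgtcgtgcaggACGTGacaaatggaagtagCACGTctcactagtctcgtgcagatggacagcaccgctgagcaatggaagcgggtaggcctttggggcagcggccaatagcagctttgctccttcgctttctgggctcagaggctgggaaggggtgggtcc
Bnip3: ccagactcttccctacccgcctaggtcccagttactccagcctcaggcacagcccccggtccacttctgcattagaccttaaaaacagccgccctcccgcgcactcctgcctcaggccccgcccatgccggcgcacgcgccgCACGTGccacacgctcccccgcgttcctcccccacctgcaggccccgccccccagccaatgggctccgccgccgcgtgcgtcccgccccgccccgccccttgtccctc

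A match of this motif is a description of the letters and not a binding site. In Bnip3 the 2 matches, 1 on each strand, overlap in 1 palindrome.

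Secreted factors of inflammation were higher in some W tumors and not in others. Of 24 chemokines and cytokines 23 were tested, 0 were called and 19 had a log2 fold change above 0 (54.6% of all genes did). The median was 0.61, against 0.03 over all genes. Members without overlap numbered 0, where the shares over all genes were 2.59% higher and 3.21% lower. Csf2, the growth factor GM-CSF (chromosome 11, 54247271 to 54249667), was 1.84, 20.99, 0.409 and 9.98 CPM in W-1D, W-2D, W-2G and W-R, and 0.857 to 1.06 CPM in the a tumors. W-2D and W-R were high, and W-2G was below every a tumor. Lif, a cytokine of the IL-6 family, followed the same pattern at 52.2, 228, 21.4 and 394 CPM in W against 33.1 to 72.1 CPM in a, and so did Il11, at 67.1, 282, 24.4 and 449 CPM against 63.0 to 95.5 CPM. Il33, an alarmin released by stromal cells, was 58.9 to 148 CPM in W and 20.7 to 63.3 CPM in a, with W-2G below a-1G. Il1b had the opposite order, 0.175 to 0.612 CPM in W and 0.253 to 3.28 CPM in a, and its highest values were in a-1D and a-R, the tumors high in macrophage genes. Tnfsf11, which encodes RANKL, was 80.2 CPM in W-R and 5.52 to 16.1 CPM in the other 7 tumors.

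No member of the remaining lists was called. All 19 genes of cholesterol synthesis had a log2 fold change above 0, with a median of 0.28 and 0 without overlap, and 4 were higher at an unadjusted p under 0.05 (54.6% and 4.09% over all genes). The lowest p was that of Nsdhl, a sterol dehydrogenase, at 33.4 to 51.7 CPM in W and 25.4 to 34.7 CPM in a. Of 30 genes of the type I interferon response 28 were below 0, where 54.6% of all genes were above 0, and the median was -0.22. That median was 0.10 between the W tumors of run 1 and a and -0.74 between the W tumors of run 2 and a. The W tumors of run 2 are also the ones whose label for sensitivity to NK cells reads Yes. The paper assigned sensitivity per line, and run and label cannot be told apart here. Ifitm3, an antiviral membrane protein and the 1 gene of that list without overlap, was 286 to 499 CPM in W and 227 to 266 CPM in a, the direction opposite to most of the list. The 20 genes of MHC class I and peptide loading had a median of 0.17. H2-D1, a class I heavy chain, was 472, 572, 508 and 492 CPM in W-1D, W-2D, W-2G and W-R and 437, 432, 420 and 344 CPM in a-1D, a-2D, a-1G and a-R, without overlap, and its log2 fold change was 0.32 (standard error 0.12, edgeR adjusted p = 0.59). Proliferation genes had a median of -0.04 and collagens of -0.02, with 0 of 20 and 0 of 18 without overlap. Krt8, an epithelial keratin, was 222 to 669 CPM in W and 331 to 448 CPM in a. Of the markers that host tissue could bring, the keratinocyte, adipocyte and skeletal muscle lists had 3, 2 and 6 members tested, none without overlap, with medians of 0.10, 0.79 and 0.45. The Schwann cell list had 5 of 8 members tested, 4 above 0, a median of 0.43 and a summed level of 41.2 to 63.3 CPM in W and 25.9 to 42.4 CPM in a. Its member Mbp, a myelin protein, was 9.84 to 17.04 CPM in W and 6.60 to 8.98 CPM in a, without overlap. Ifitm3, H2-D1 and Mbp were named for the lowest p of their lists in this same comparison, so their separation is no further support. The erythroid list had a median of 0.42 and the pan-leukocyte list of -0.69. Of the 5 sex-linked genes 4 were tested, 0 without overlap, and Ddx3y, a Y-linked helicase, was 48.9 to 93.6 CPM over the 8 tumors.

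**Figure D4:**
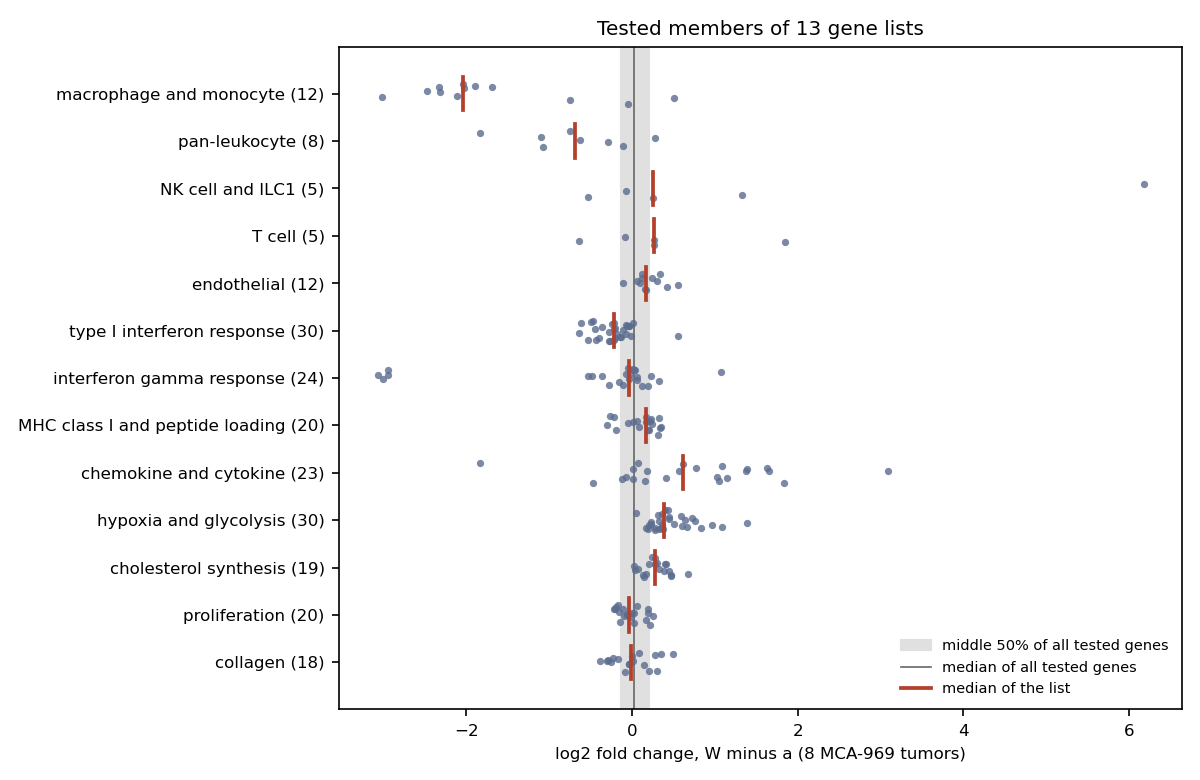
Log2 fold change, W minus a, of every tested member of 13 gene lists (points), with the median of each list (red bar), the median of all tested genes (grey line) and their middle 50% (grey band). The macrophage list lies to the left at a median of -2.04, all 30 hypoxia and glycolysis genes lie above 0, and Gzmc is the point at 6.18.

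Several genes outside the lists above separated the letters with little spread. Gata4, Sprr1a and Atg9b were among the 5 genes higher in W with the lowest p of this same comparison. Their separation follows from that choice and is no further support. Over all tested genes, 2.59% were higher in every W tumor than in any a tumor. Gata4, a transcription factor of heart and gut development (chromosome 14, 63198922 to 63271692), was 4.19, 2.68, 4.94 and 5.57 CPM in W-1D, W-2D, W-2G and W-R, and 0.696, 0.581, 1.41 and 0.529 CPM in a-1D, a-2D, a-1G and a-R. Its log2 fold change was 2.44 (standard error 0.38, edgeR adjusted p = 0.477, DESeq2 adjusted p = 2.23e-07). The lowest W tumor, W-2D, was still above a-1G, the highest a tumor. Sprr1a, a precursor of the cornified envelope of epithelia, was 33.0, 33.1, 41.8 and 47.6 CPM in W and 11.02, 16.3, 20.4 and 9.65 CPM in a. Atg9b, an autophagy protein, was 39.6, 38.9, 27.6 and 35.5 CPM in W and 21.4, 17.3, 18.5 and 16.7 CPM in a. Both had separate groups. Procr, the receptor of protein C, was 28.0 to 51.4 CPM in W and 17.2 to 25.3 CPM in a, and Gdnf, a neurotrophic factor, was 8.21 to 18.4 CPM and 4.26 to 7.08 CPM. Procr and Gdnf were chosen after their values were seen. S100a8, a calcium-binding protein of neutrophils from the neutrophil list, was 2.77 to 5.63 CPM in W and 0.417 to 2.03 CPM in a. S100a8 was named for the lowest p of that list, so its separation is no further support. The other tested member of the list, Mmp9, had a log2 fold change of -0.20.

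The genes lower in W with the lowest p had log2 fold changes from -0.42 for Hook3 to -1.36 for Frmd5. Klhl42, an adaptor of a cullin ubiquitin ligase (chromosome 6, 147091379 to 147112778), was 22.1, 17.1, 18.8 and 20.8 CPM in W-1D, W-2D, W-2G and W-R and 30.4, 29.5, 33.2 and 36.0 CPM in a-1D, a-2D, a-1G and a-R. Hook3, which links cargo to dynein, was 122, 122, 134 and 126 CPM in W and 166, 164, 177 and 170 CPM in a, a log2 fold change of -0.42 (standard error 0.09, edgeR adjusted p = 0.556). Both genes were lower in every W tumor, with SDs of 5.48 CPM in W and 5.86 CPM in a for Hook3. Lig4, the DNA ligase of non-homologous end joining, was 8.04 to 8.63 CPM in W and 12.2 to 15.2 CPM in a. Rps4l, annotated as a transcribed pseudogene whose reads could be shared with its relatives, was 3.21 to 6.13 CPM in W and 9.16 to 11.7 CPM in a, and Frmd5 was 0.438 to 0.576 CPM and 1.08 to 1.86 CPM. Tle1, a corepressor of Wnt and Notch targets, was 28.4 to 36.3 CPM in W and 45.4 to 50.2 CPM in a. Wnt10a, a Wnt ligand, was 11.9, 19.5, 19.3 and 19.2 CPM in W and 27.8, 39.6, 28.7 and 36.5 CPM in a. All of these were without overlap, as were 3.21% of all tested genes in this direction. Klhl42, Hook3, Lig4, Rps4l and Frmd5 had been chosen by their p in this comparison, so their separation is no further support. The same holds for Wnt10a, named for the lowest p of its list, and for Tle1, chosen after its values were seen.

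**Figure D5:**
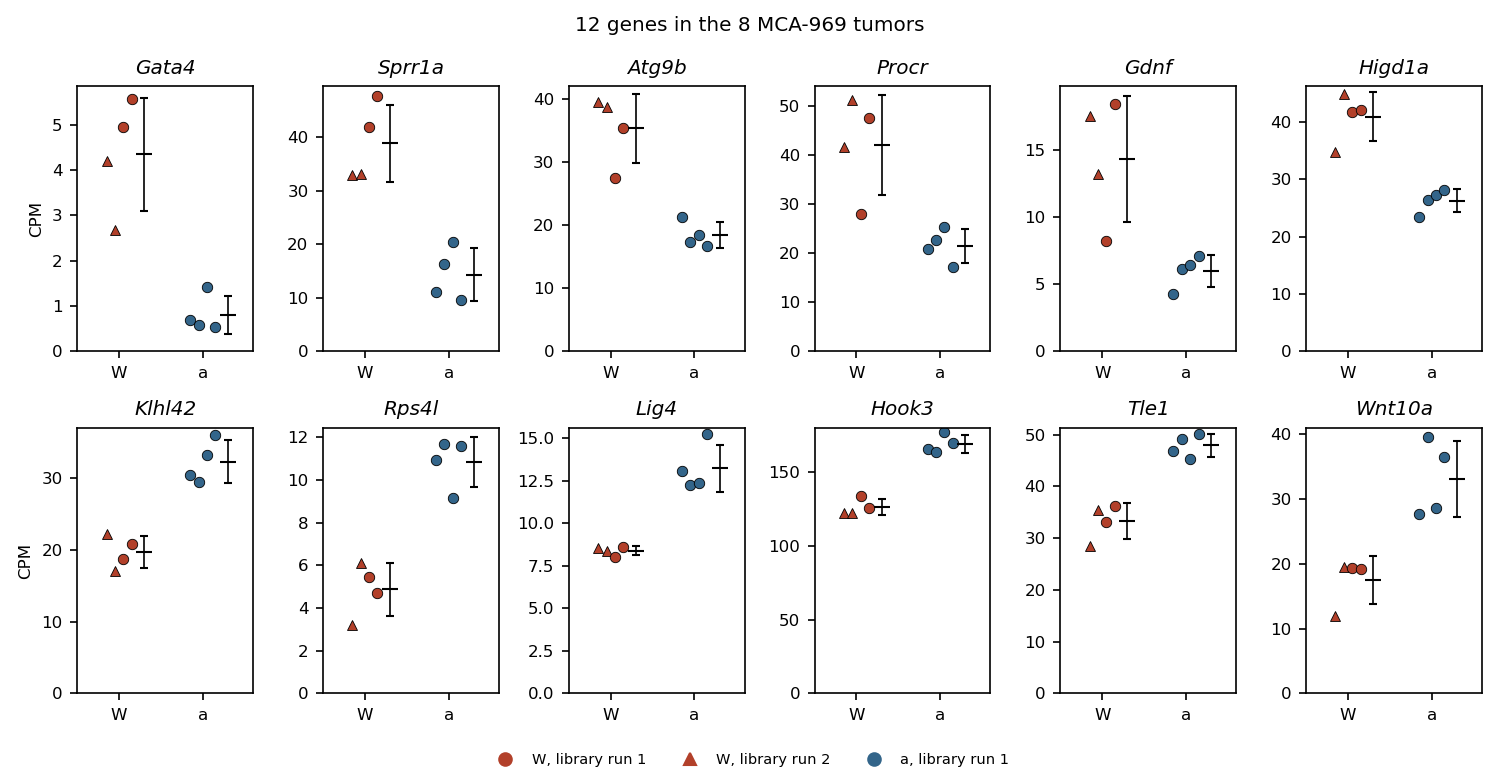
CPM of 12 genes in the 8 MCA-969 tumors, W in red (triangles for library run 2) and a in blue, with the mean and SD of each group beside the points (n = 4) and axes from 0. The upper 6 genes are higher and the lower 6 genes lower in every W tumor than in any a tumor. The genes were picked from the values of this same comparison.

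The library run was compared within the letter W, where it coincides with the label for sensitivity to NK cells (Yes in both tumors of run 2 and No in both of run 1), so that run and label cannot be told apart within W. Of 16042 genes, edgeR called 0 higher and 5 lower (0.0312%) in the W tumors of run 2 than in those of run 1: Gm23119, mt-Nd6, Scarna17, Mir703 and Klf13. At an unadjusted p under 0.05, 644 (4.01%) were higher and 802 (5%) lower, and DESeq2 called 15 and 100. mt-Nd6, the subunit of respiratory complex I that is encoded on the light strand of the mitochondrial genome, was 21.5 and 16.1 CPM in W-1D and W-2D and 227 and 191 CPM in W-2G and W-R. The a tumors, all from run 1, held 131 to 198 CPM. The log2 fold change between the runs was -3.47 (standard error 0.24, edgeR adjusted p = 0.00309). Klf13, a zinc finger transcription factor, was 33.6 and 28.7 CPM in W of run 2, 79.1 and 75.9 CPM in W of run 1 and 66.1 to 78.0 CPM in a. Scaled over all 30 tumors, mt-Nd6 was 7.94 to 28.0 CPM in the 10 tumors of run 2, 127 to 212 CPM in the 10 of run 1 and 58.6 to 148 CPM in the 10 of run 3, so the low values were found in run 2 in every line it held. Between the W tumors of run 2 and the a tumors, 0 genes were called higher and 6 lower (0.0374%), and 4 of the 6 were among the 5 genes above, the others being Nr2f2 and Gm17066. At an unadjusted p under 0.05, 1099 (6.85%) were higher and 1027 (6.4%) lower, and DESeq2 called 118 and 271. Between the W tumors of run 1 and the a tumors, where library run did not differ, edgeR called 0 in either direction with 547 (3.41%) higher and 385 (2.4%) lower at an unadjusted p under 0.05, and DESeq2 called 28 higher and 3 lower. C1qc, Higd1a, Gata4 and Hook3 had log2 fold changes of -2.48, 0.67, 2.71 and -0.38 for W of run 1 and -2.48, 0.60, 2.10 and -0.47 for W of run 2.

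The difference between W and a was set against that in MCA-948 (4 W and 4 a tumors) and MCA-970 (3 and 3) in the fit on all 30 tumors. Against MCA-948, edgeR called 39 genes with a higher and 32 with a lower W minus a in MCA-969 (0.212% and 0.174% of 18404), and against MCA-970, 1 higher and 1 lower (0.00543% each). At an unadjusted p under 0.05 the shares were 9.5% and 8.63% against MCA-948 and 5.94% and 5.04% against MCA-970. In MCA-948 all W tumors were of run 3 and the a tumors of runs 2 and 3, and MCA-970 was of run 2 throughout, so line and run are partly confounded. Wnt10a was called in both. Its log2 fold change, W minus a, was -0.96 (standard error 0.17) in MCA-969, 0.90 (standard error 0.20) in MCA-948 and 0.64 (standard error 0.21) in MCA-970, and the differences were -1.86 (adjusted p = 0.00213) and -1.61 (adjusted p = 0.039). The W tumors lay below the a tumors in MCA-969 and above them in both other lines. Crip1, a LIM domain protein, was 0.41 (standard error 0.10) in MCA-969 and -0.49 (standard error 0.11) in MCA-970, a difference of 0.90 (standard error 0.15, adjusted p = 0.039). Tle1 differed by -0.64 (standard error 0.13, adjusted p = 0.041) from MCA-948. With the library run as a covariate edgeR called 0 genes in either comparison, with 1831 and 1665 at an unadjusted p under 0.05. The hypoxia list had a median of -0.03 in MCA-948 and 0.05 in MCA-970, against 0.35 in MCA-969 in the same fit, and 0 of its members passed the test of either difference.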

How the data were processed

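The tumors, gene lists and named genes were chosen with earlier results of these data known. The deposited values are raw counts per gene for 48440 genes. The authors aligned reads to GRCm38 with STAR (2.5.3a in the submitters' processing notes), and the column names of the deposited file state removal of duplicates by molecular identifiers; featureCounts made the counts (1.5.2 in those notes), with the strand setting not given in the sources used here. The deposited file also lists a gene length as another column, which was not used. Genes were named from GENCODE M21, which holds 48058 of them. Counts were filtered with filterByExpr, normalized by TMM and fitted robustly with edgeR 4.0.16 (glmQLFit, Benjamini-Hochberg adjusted p under 0.05, no fold threshold); a standard error is the fold change over the root of F. The biological coefficient of variation was 0.254. Alternatives used DESeq2 1.42.0, limma 3.58.1, other scalings, filters, covariates and samples in R 4.3.3. The fits were tested on simulated data. Genes named were the 5 with the lowest p in each direction, up to 2 per list by lowest p, the sex-linked list, Krt8, Tnfsf11, up to 5 genes called between runs (by fold change) and for each line (by p), and genes that describe a list, values only, or are marked as chosen later. Plots used matplotlib 3.10.9.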

Additional observations from a re-analysis of the deposited data

Results flagged for a closer look

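Groups of 4 tumors were searched for a tumor far from the other 3, over 224 groups, of which 10 (4.46%) were found; chance alone finds about 1 in 20. W-2D stood out with 21432 genes detected, against 22706 to 22833 in the other W tumors. Tnfsf11 stood at 80.2 CPM in W-R, Acta1, a skeletal muscle actin, at 13.3 CPM in W-2D, and F13a1, a coagulation factor chain, at 0.331 CPM in W-2D. Fabp4, an adipocyte marker, stood at 4.17 CPM in W-1D and Wnt10a at 11.9 CPM in W-1D. Among the a tumors, Gzmc was 0 CPM in a-R, which is a difference of 1 count from each of the other 3 and no more than counting error, H2-D1 was 344 CPM in a-R, Trac was 0.473 CPM in a-1D and Ifitm3 was 227 CPM in a-1D.

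The difference W minus a in MCA-969 departed from that in MCA-948 by 1.91 on the log2 scale for Tmem159, -1.86 for Wnt10a, -0.95 for Crebzf, 1.19 for Cd302 and -0.84 for Lrfn4, and from that in MCA-970 by 0.90 for Crip1 and -1.61 for Wnt10a, each tested in the fit on all 30 tumors.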

How the results depend on the processing

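With 4 tumors a letter, 2 of the W tumors in another run and index set confounded with letter, the counts of calls varied with the tool. Between W and a, 0 genes were called by edgeR, and 95 by DESeq2, 2 with sample weights, 1 without a filter (Gzmc) and 5 with all 30 tumors in the fit; the others called 0, as did each fit without 1 tumor (lowest and highest 0, with 690 to 1809 genes at an unadjusted p under 0.05). Between W of run 1 and a, 0 became 31 with DESeq2, 2 without a filter and 2 with all 30 tumors; between W of run 2 and a, 6 became 389, 62 and 1374; between the W tumors of both runs, 5 became 115, 8 and 397. For the difference from MCA-948, 71 became 495 with DESeq2, 46 with its size factors, 25 without a filter, 34 with a log2 fold change of at least 1, 0 with the run as a covariate and 1 with the tumors of both lines only. For MCA-970, 2 became 115, 1 without a filter, 1 with the fold threshold, and 0 with the run as a covariate or with both lines only. The causes were not tested.

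The title codes 1D, 2D and R occur under both letters, but the tumors that share them did not pair: their deviations correlated at 0.132, 0.174 and -0.109. With the code as a replicate block on those 6 tumors 0 genes were called by edgeR (1004 at an unadjusted p under 0.05), and 0 in the same tumors without the block (1209), a fit added after seeing the data.

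The median of the macrophage list ran from -2.37 to -1.51 without 1 tumor and was -0.57 with a-2D and a-1G as the only a tumors, an alternative added after seeing the data. That of the hypoxia list ran from 0.34 to 0.52 and was 0.55 with the run as a covariate and 0.54 within run 1. That of the NK cell list, 5 genes, ran from 0.0852 (without W-R) to 0.59 (without a-2D), and was 0.49 with a-2D and a-1G as the only a tumors, -0.14 with a mean of at least 1 CPM, 0.56 with the run as a covariate and 0.56 within run 1. The granzymes other than Gzmc rest on few counts.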
